A study of Mus musculus with 2 samples.

Results

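The regions described here are the 10 kb that follow the annotated ends of protein-coding genes, taken on the strand of the gene and only where no annotated gene lies on either strand (mm9, GENCODE vM1). Of 22380 protein-coding genes, 19728 had such a window, 10353 of them over the whole 10 kb, and the windows came to 146 Mb with a GC content of 43.6%. RNA fragments (tags) that were crosslinked to Mbnl2 in quadriceps muscle were assigned to a window by their midpoint, after tags made up of at least 70% a single reference base had been left out. In all, 6054 of 188766 WT tags and 13977 of 392681 *Mbnl1* KO tags lay in the windows, 20031 tags together.

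The 2 libraries came from quadriceps of WT and Mbnl1-/- mice of 15 to 16 weeks, 3 mice each, on a background that the labels give as C57BL/6 and the methods, for related crosses, as mixed with 129. The knockout is germline, by an allele named for exon 3, and *Mbnl2* is intact in both groups. High-throughput sequencing of RNA isolated by crosslinking and immunoprecipitation (HITS-CLIP) was done on frozen, powdered and UV-irradiated muscle with an antibody to Mbnl2, after RNase A at a high and a low concentration. The 3 mice of each genotype are merged in 1 table of tags. Variation among mice is therefore unknown, the genotypes were not tested against each other, and the intervals below (exact 95% Clopper-Pearson) describe counting error in this pair of libraries.

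Muscleblind-like (MBNL) proteins are zinc finger proteins that bind RNA at short motifs of the form YGCY, where Y is C or U. In the nucleus they regulate alternative splicing, and in the 3′ UTR of mRNAs they are known for roles in localisation, stability and the choice of polyadenylation site. RNA polymerase runs past the end of a gene before it stops, and many genes can end at more than 1 polyadenylation site, so RNA from the strand of the gene can extend past an annotated end; windows can also hold transcripts or repeats that the annotation does not list.

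The busiest 30 bases of 8 clusters of tags are shown first, as examples of clusters in which nearly all tags had a single exact place in the genome (22 of 23 at Sbk2, 24 of 25 at Klhl24 and all at the others). They were chosen after their values were seen and are not all such clusters. Those of Atp1b1, Gm10782 and Slc7a8, which had at least as many tags as some of these, are not shown, and their *Mbnl1* KO/WT ratios were 3.08, 0.781 and 0.534. Further clusters of Lnp with 18 tags, at 1 WT and 17 *Mbnl1* KO tags (ratio 8.17) and at 3 and 15 (2.40), are not shown either. A cluster is a run of overlapping tags on a strand, pooled over both libraries, with at least 10 tags. The sequences are mm9, 5′ to 3′ on the strand of the gene and written as DNA, with each YGCY motif in capitals. The motif was searched as TGCT and as the same letters with C in place of either T or of both.
Lnpep, chr17:17662915-17662944, minus strand: ttTGCTGCTatttggCGCTtacttaaTGCT
Lnp, chr2:74357209-74357238, minus strand: taactcatgCGCTTGCTtggcagattgact
Bmpr2, chr1:59928695-59928724, plus strand: agcttctggTGCTGCTgtaccttgatgttg
Sbk2, chr7:4907819-4907848, minus strand: atcTGCTctggcttttgtTGCTGCTtactc
Prkg1, chr19:30639024-30639053, minus strand: tttccctgcagctgtaattgcagagTGCCt
Tmem182, chr1:40913493-40913522, plus strand: attTGCTttttggctttctttggcttgatt
Klhl24, chr16:20128987-20129016, plus strand: tcttcatCGCTccCGCTcctgcagtgtgag
Zbtb16, chr9:48460205-48460234, minus strand: ttgcagcCGCTtacctacccacaccTGCCt
These sites lay 1757, 1124, 1007, 849, 4689, 1396, 1185 and 2196 bases past the annotated ends, in that order. The tags that overlapped them were 3 WT and 16 *Mbnl1* KO at Lnpep, 3 and 19 at Lnp, 1 and 13 at Bmpr2, 3 and 17 at Sbk2, 0 and 17 at Prkg1, 13 and 34 at Tmem182, 4 and 9 at Klhl24, and 5 and 9 at Zbtb16. These are tags as counted, from a *Mbnl1* KO library with more tags. Divided by the tags used of each library, the *Mbnl1* KO/WT ratio was 2.56 at Lnpep, 3.04 at Lnp, 6.25 at Bmpr2, 2.72 at Sbk2, 1.26 at Tmem182, 1.08 at Klhl24 and 0.865 at Zbtb16, each with an interval that held 1, and at Prkg1 the interval ran from 1.98 upward. The number of motifs in the 30 bases ranged from 1 to 4 at these 8 chosen sites. Of the sites left out above, those of Atp1b1 and Slc7a8 held 0 motifs and the others 1 or 2. A motif was thus not present at every such site: of the 42 in clusters placed once, given further below, 30 held at least 1.

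Across all windows, Mbnl2 tags were slightly more frequent in the *Mbnl1* KO library than in WT, and in both they favoured the strand of the gene. Not every setting kept the amount, and the direction turned when tags were scaled to those in annotated 3′ UTRs, as given below. The windows held 3.21% of WT tags (interval 3.13 to 3.29) and 3.56% of *Mbnl1* KO tags (3.50 to 3.62). The *Mbnl1* KO/WT ratio, in which tags are divided by the tags used of each library, was 1.11 (1.08 to 1.14). As a background measured in the same way, the opposite strand was counted over the 123 Mb that are a window on 1 strand only. It held 3907 WT and 6560 *Mbnl1* KO tags, with a ratio of 0.807 (0.776 to 0.840), against 5035 and 11678 tags on the strand of the gene in those bases. The share of tags on the strand of the gene was 56.3% in WT (55.3 to 57.3) and 64.0% in *Mbnl1* KO (63.3 to 64.7), and the intervals did not overlap. A number of tags reflects both how much RNA was present and how often Mbnl2 was crosslinked to it, which cannot be told apart here, and neither can fewer cells of a type and less RNA per cell. When the opposite-strand tags of each library were subtracted, the remainder had a ratio of 2.18 (1.84 to 2.59, from a normal approximation on the log scale). In annotated 3′ UTRs, where nothing was subtracted, the ratio was 2.03 (1.997 to 2.074). With tags of at least 2 reads these were lower, at 1.51 (1.31 to 1.75) for the remainder and 1.48 (1.44 to 1.51) for 3′ UTRs.

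Depth and repeated sequence moved with these numbers. From 5176203 reads in WT and 50329234 in *Mbnl1* KO, the tables kept 343554 and 476543 tags. Of window tags, 68.0% in WT and 51.2% in *Mbnl1* KO rested on a single read; with tags of at least 2 reads the ratio was 1.097 and the shares on the strand of the gene were 64.5% and 71.8%. Many tags could have come from more than 1 place: a tag is called placed once here when its central 20 bases occur once in mm9, counting both strands and exact matches, a rule chosen after the data were seen. Of window tags, 70.1% in WT and 60.5% in *Mbnl1* KO were placed once, and with these alone the ratio was 1.07 (1.03 to 1.11) and the shares on the strand of the gene were 56.7% and 65.4%. With tags placed once that also rested on at least 2 reads the ratio was 1.05 (0.987 to 1.12), an interval that held 1. The tissue label was checked on 10 genes that mark skeletal muscle: their bodies held 903 WT and 3294 *Mbnl1* KO tags and none was at 0. Per 1000000 tags used these were 4784 and 8388, and the bodies of marker genes of other cell types held 969 and 1994 for fibroblasts, 191 and 300.5 for endothelium, 84.8 and 84.0 for smooth muscle, 79.5 and 78.9 for macrophages, 68.9 and 35.7 for satellite cells, 58.3 and 135 for Schwann cells, 42.4 and 15.3 for erythroid cells and 37.1 and 120 for adipocytes. The part of these cells in the window tags was not tested. *Mbnl1* itself had 0 tags in its window and 99 WT and 450 *Mbnl1* KO tags in its body; tags show contacts of Mbnl2 and not the level of a deleted exon, so this does not check the genotype.

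The excess on the strand of the gene lay close to the gene end. In the first 0.5 kb there were 606 WT and 1731 *Mbnl1* KO tags (ratio 1.37, 1.251 to 1.509), between 0.5 and 1 kb 499 and 1581 (1.52, 1.38 to 1.69), and between 1 and 2 kb 894 and 2360 (1.27, 1.17 to 1.37). From 2 to 5 kb the tags were 1827 and 3935 (1.04, 0.979 to 1.095), and from 5 to 10 kb 2228 and 4370 (0.943, 0.896 to 0.993). Without subtraction of the opposite strand, the ratio was therefore above 1 in the first 2 kb and slightly below 1 beyond 5 kb, with intervals that exclude 1 at both ends. On the opposite strand the ratio stayed between 0.773 and 0.945 over the same 5 distances. With opposite-strand tags subtracted, the ratio was 2.33, 2.45, 2.11, 2.12 and 2.01 (1.08 to 3.75 for the last), so it did not fall below 1 with distance. With tags placed once the last of these was 1.51 (0.739 to 3.07), an interval that held 1. The share of *Mbnl1* KO tags on the strand of the gene was 72.7%, 76.5% and 73.1% in the first 3 distances, then 62.1% and 56.3%. In WT these shares were 61.5%, 65.1%, 62.3%, 55.2% and 52.7%, lower than in *Mbnl1* KO at each distance, and the intervals of the libraries did not overlap at any of them. With tags placed once the ratio was 1.46, 1.54, 1.249, 0.989 and 0.832, in order of distance. Of window tags, 22.5% in WT and 23.2% in *Mbnl1* KO also lay within 10 kb before the start of another gene on that strand.

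**Figure D1:**
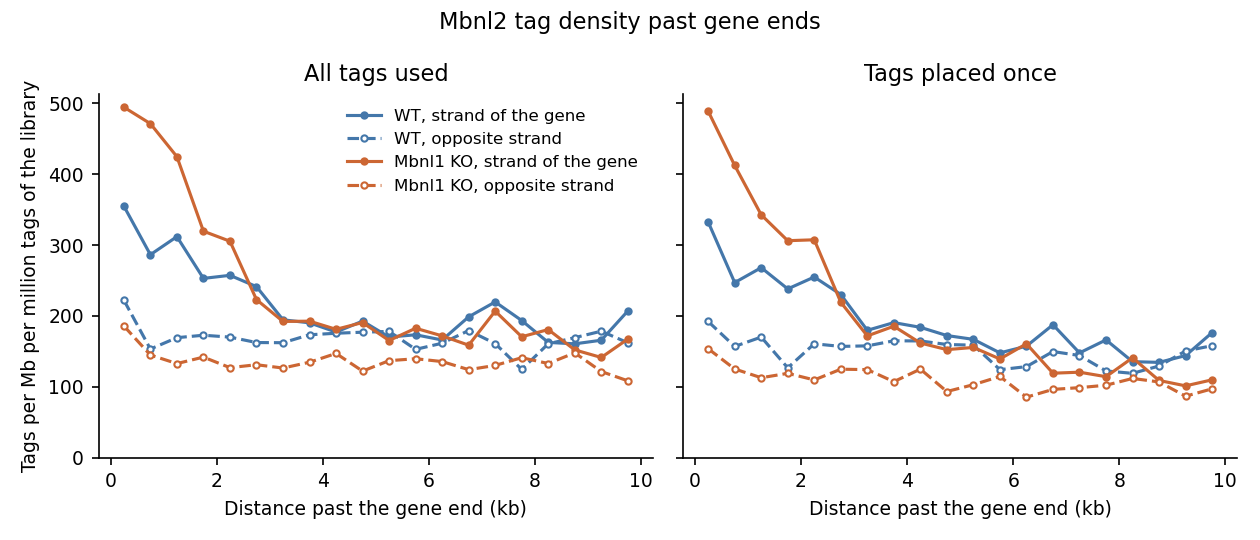
Tags per Mb and per 1000000 tags of the library (vertical axis) in steps of 0.5 kb past the gene end (horizontal axis), for WT (blue) and *Mbnl1* KO (orange), on the strand of the gene (filled points, solid lines) and on the opposite strand of the same bases (open points, dashed lines); the left panel holds all tags used and the right panel tags placed once. *Mbnl1* KO tags on the strand of the gene start at 494 and WT tags at 355 in the left panel, and both fall towards their opposite-strand level over the first few kb.

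Set beside other parts of the genome, the windows stood between genes and deep intergenic sequence. Per Mb they held 41.5 WT and 95.8 *Mbnl1* KO tags, against 511 and 2164 in 3′ UTRs, which were 12.3 times (interval 12.0 to 12.7) and 22.6 times (22.17 to 23.002) denser. These folds depended on the tags used: 23.3 and 31.4 times with tags of at least 2 reads, and 29.6 and 44.8 times with those also placed once. Introns were close to the windows in density, at 46.8 and 106 tags per Mb, and in ratio, at 1.087 (1.075 to 1.0997). The 10 kb before genes held 33.5 and 59.2 tags per Mb with a ratio of 0.850 (0.818 to 0.882), and intergenic sequence over 10 kb from any gene 27.9 and 44.8 with a ratio of 0.772 (0.765 to 0.780). Windows were denser than the 10 kb before genes by 1.24 times in WT (1.19 to 1.29) and 1.62 times in *Mbnl1* KO (1.57 to 1.67), or 1.88 and 2.82 times with tags placed once and of at least 2 reads. All ratios are shares of a library, so a higher share of 3′ UTR tags in *Mbnl1* KO lowers the others, and scaling to the 3′ UTR tags instead turned the window ratio to 0.545.

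**Figure D2:**
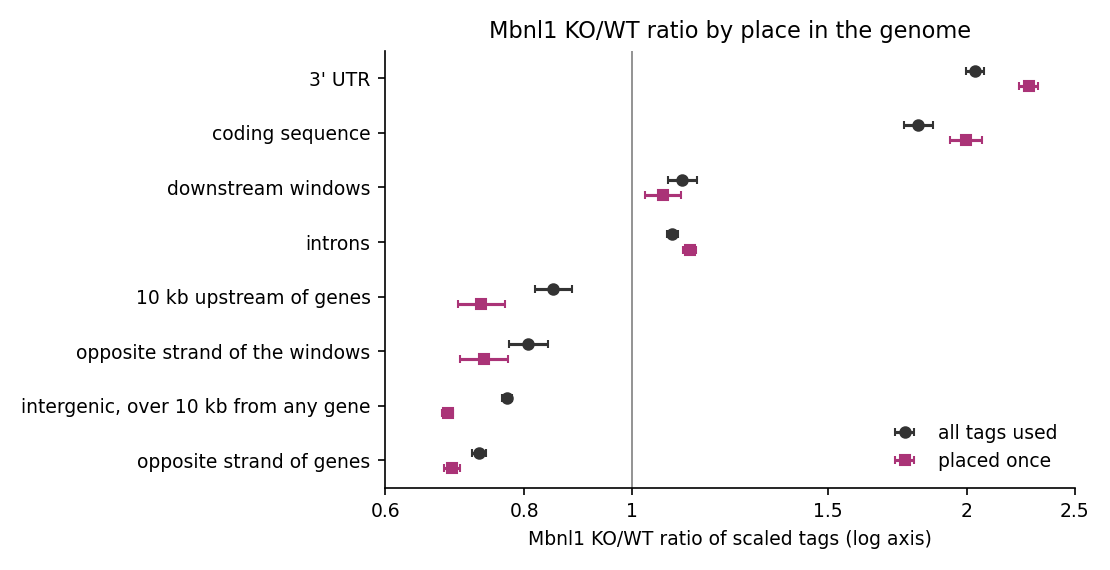
*Mbnl1* KO/WT ratio of scaled tags (horizontal log axis) in 8 parts of the genome, for all tags used (dark circles) and tags placed once (purple squares), with exact 95% intervals for counting error. The windows lie just above 1, their own opposite strand and the 10 kb before genes lie below it, and 3′ UTRs lie near 2.

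Windows behind genes with many 3′ UTR tags held more tags, on the strand of the gene, than windows behind genes with none. Behind the 13504 genes with no tag in the annotated 3′ UTR, windows held 36.6 WT and 77.7 *Mbnl1* KO tags per Mb, the ratio was 1.02 (0.981 to 1.06) and 53.4% and 59.4% of tags lay on the strand of the gene. Behind the 1238 genes with 10 to 49 UTR tags the density was 66.4 and 219 per Mb, the ratio 1.59 (1.45 to 1.74) and the shares 64.1% and 80.7%. Behind the 263 genes with at least 50 UTR tags it was 91.5 and 397 per Mb, the ratio 2.08 (1.77 to 2.47) and the shares 72.2% and 88.1%. A single window, that of Phka1, carried much of the last class: without it the density was 63.5 and 227 per Mb, the ratio 1.72 (1.40 to 2.11) and the shares 62.8% and 79.4%, near those of the class with 10 to 49 UTR tags. With tags placed once the ratio was 1.66 (1.497 to 1.84) in the class with 10 to 49 UTR tags and 1.65 (1.31 to 2.09) in the last, with shares of 66.3% and 84.7% and of 68.8% and 81.0%, so no rise from the one class to the other was seen. A window tag was still not the rule: 38.4% of windows in the first class and 51.7% in the last held at least 1 tag.

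Tags were spread thinly over most windows and gathered in a few. At least 1 tag lay in 7850 windows (39.8%), 4517 of these held exactly 1, and 209 (1.06%) held at least 10. The 20 fullest windows held 2508 tags, 12.5% of all window tags. In 8 of those 20 more than 80% of tags were placed once, and in 11 under 20% were. In the 77 windows that held 20 tags or more, the ratio had a median of 2.16 (order-statistic interval 1.85 to 2.74), 67 lay above 1, 38 were at least 2-fold higher in *Mbnl1* KO with an interval above 1, and 0 were lower by the same rule. Of annotated 3′ UTRs with at least 20 tags, 42% (363 of 865) were called higher and 0% lower, with a median of 2.19. The minimum of 20 counts the tags of both libraries, and most of these come from *Mbnl1* KO, so windows that are low there pass it less easily. Of the 7773 windows with 1 to 19 tags, 18 were called higher (0.232%) and 33 lower (0.425%), among the latter 4933436I01Rik with 16 WT and 1 *Mbnl1* KO tags, all 17 placed once. In 3′ UTRs with 1 to 19 tags 2.28% were called higher and 0.204% lower. With fewer than 10 tags a higher call is not possible under the rule, while a lower call can be reached with fewer. The shares called among windows and UTRs with 1 to 19 tags were thus partly fixed by the rule, and higher and lower calls there cannot be compared.

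**Figure D3:**
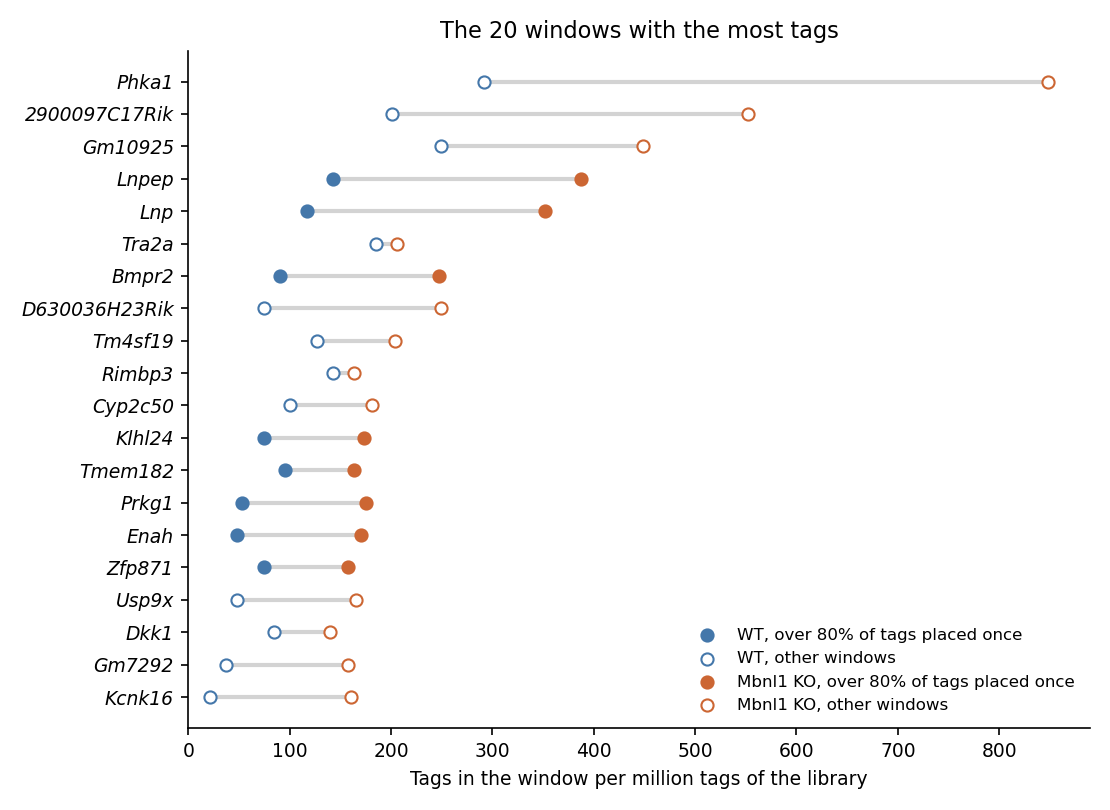
Tags per 1000000 tags of the library (horizontal axis) in the 20 windows with the most tags, for WT (blue) and *Mbnl1* KO (orange); filled points mark windows with over 80% of tags placed once and open points the others. *Mbnl1* KO lies to the right of WT in all 20, and the points nearly coincide for Tra2a and Rimbp3.

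Of the windows that can be read without doubt about placement, those of Lnpep and Lnp were the fullest. Lnpep, an aminopeptidase of the vesicles that carry the insulin-responsive glucose transporter, had 27 WT and 152 *Mbnl1* KO tags in its window (ratio 2.71, 1.79 to 4.24), 173 of the 179 placed once, from 38 to 8644 bases past its end. Its annotated 3′ UTR held 4 and 16. The ratio of the annotated UTR was 1.92 (0.620 to 7.90), an interval that held 1, and in both libraries the window held more tags than that UTR. Lnp (Lnpk in RefSeq), which shapes the junctions of the endoplasmic reticulum, had 22 and 138 window tags (3.02, 1.91 to 4.97) and 0 and 21 in its 3′ UTR. Opposite-strand tags were 0 and 0 at Lnpep and 1 and 0 at Lnp.

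Bmpr2, a receptor for bone morphogenetic proteins, had 17 WT and 97 *Mbnl1* KO tags in its window (2.74, 1.63 to 4.90), in a group within about 2 kb and another beyond 4 kb of its end. Prkg1, the cGMP-dependent protein kinase, had 10 and 69 (3.32, 1.70 to 7.22), with 0 tags in its annotated 3′ UTR in either library. Enah, which promotes growth of actin filaments, had 9 and 67 (3.58, 1.78 to 8.16). In these 3 windows the interval of the ratio lay above 1. Klhl24, an adaptor of a ubiquitin ligase, had 14 and 68 tags (2.33, 1.30 to 4.50), all within 1306 bases of its end, and 89.0% of them held a YGCY motif. Zfp871, a zinc finger gene, had 14 and 62 (2.13, 1.18 to 4.12), of which 57 of the 70 placed once lay between 2 and 5 kb. Tmem182, a membrane protein of muscle, had 18 and 64 (1.71, 1.00 to 3.06), an interval that lay only just above 1, and 79 of its 82 tags lay between 1 and 2 kb.

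**Figure D4:**
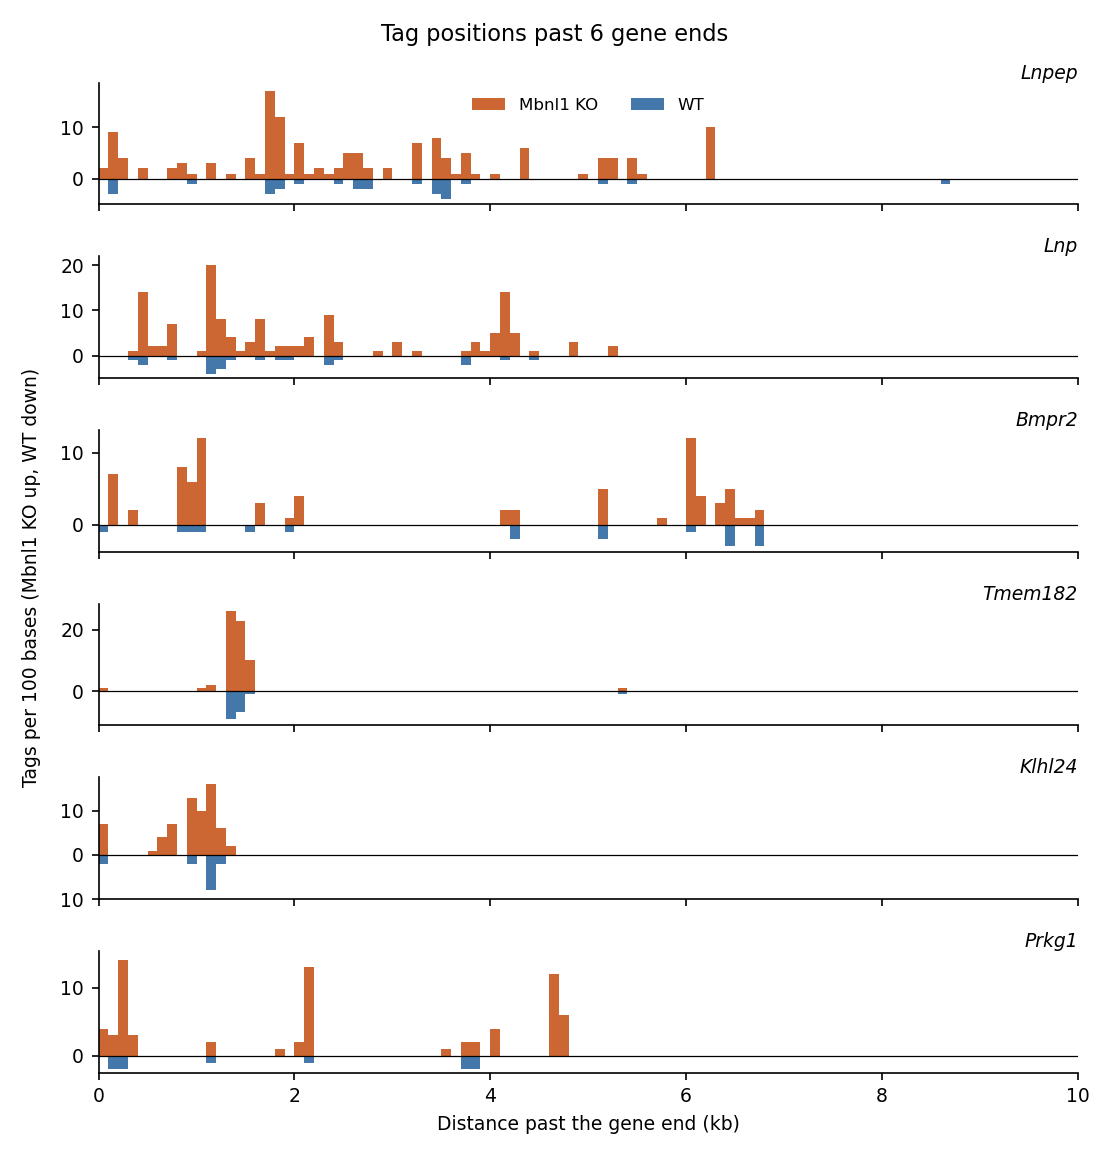
Tags per 100 bases (vertical axis, *Mbnl1* KO upward in orange and WT downward in blue) along the distance past the gene end in kb (horizontal axis) for 6 windows in which most tags were placed once. The tags of Klhl24 and Tmem182 sit in a single stretch, while those of Lnpep, Lnp, Bmpr2 and Prkg1 form several separate groups.

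In all, 49 windows held at least 20 tags placed once. Together they had 394 WT and 1767 *Mbnl1* KO tags. This minimum too counts both libraries, so windows low in *Mbnl1* KO pass it less easily, and the values below describe windows chosen in this way. Over all windows the ratio with tags placed once was 1.07. Their median ratio was 2.52 (2.05 to 3.03), 43 lay above 1, 26 were called higher and 0 lower, beside 53.5% (402 of 751) called higher and 0% lower, and a median of 2.497, for 3′ UTRs with at least 20 tags placed once. The median tag lay under 1 kb from the gene end in 12 of them, between 1 and 5 kb in 32 and beyond 5 kb in 5.

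Of these 49 windows, that of Usp15, a deubiquitinase, held 4 WT and 40 *Mbnl1* KO tags (4.81, 1.74 to 18.5), with 10 tags in the first 0.5 kb and 26 in the next. Ube3a, a ubiquitin ligase, had 4 and 39 (4.69, 1.69 to 18.1). Il6st, the shared receptor chain of the interleukin 6 family, had 8 and 51 (3.06, 1.44 to 7.48), and Scarb2, a lysosomal membrane protein, 8 and 52 (3.12, 1.47 to 7.62). All 4 had more tags in *Mbnl1* KO than WT beyond the interval. By contrast Zbtb16, a transcription factor, had 17 and 32 (0.905, 0.488 to 1.74), and Trdn, a protein of the junction between the T-tubule and the sarcoplasmic reticulum, 7 and 13 (0.893, 0.331 to 2.64), so for both the interval held 1. Scaled to tags placed once, as in the summary of the 49 windows, their ratios were 1.007 and 0.994. Among all windows with at least 20 tags, the 5 lowest ratios were those of Slc7a8 (0.588, 9 and 11 tags), Gm17527 (0.691, 16 and 23), Lmbrd2 (0.694, 9 and 13), Yy1 (0.721, 8 and 12) and Gm10782 (0.781, 8 and 13), and each interval held 1. The 5 highest were Ticam2 (9.61, 1 and 20 tags), Nsmce1 (7.69, 2 and 32), Kcnk16 (7.57, 4 and 63), Atxn1 (5.29, 2 and 22) and Usp15. All tags of Ticam2 and 46 of the 67 of Kcnk16 had over 100 exact copies in the genome, and 31 of the 34 of Nsmce1 had copies within its own window, while 22 of the 24 of Atxn1 were placed once.

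The windows with the most tags of all were made of sequence with copies. Phka1, the muscle subunit of phosphorylase kinase, had 55 WT and 333 *Mbnl1* KO tags (2.91, 2.18 to 3.95), and 363 of the 388 had exact copies only within its own window. Its fullest cluster, chrX:99707587-99708669 on the minus strand, is a tandem repeat with a period of 240 bases, 4.51 units and 96.1% identity from unit to unit, and each unit holds 13 YGCY motifs. The busiest 30 bases of the repeat are shown with the motifs in capitals.
Phka1, chrX:99708247-99708276, minus strand: gcttcttccctgggTGCTcaTGCTtacata
Since the copies lie next to each other, the gene end they follow is not in doubt, while the unit is. The annotated 3′ UTR of Phka1 held 13 and 75 tags, a ratio of 2.77 (1.53 to 5.45).

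Other full windows shared their sequence with distant places, and which copy was bound cannot be told apart. The window of 2900097C17Rik had 38 WT and 217 *Mbnl1* KO tags (2.75, 1.94 to 3.98). RefSeq (GRCm38.p6) gives this symbol as a synonym of Norad, a long noncoding RNA that binds Pumilio proteins. Of the 112 window tags of D630036H23Rik, 106 had a copy in that window, as did 60 of the 69 of Gm7292, so these windows are not separate observations. Gm10925, a pseudogene of mt-Atp6 in RefSeq, had 47 and 176 tags (1.80, 1.30 to 2.54), and 220 of the 223 had an exact copy on chromosome M, 74 of them in mt-Co3. In the windows of Tra2a (35 and 81 tags, ratio 1.11, 0.740 to 1.70), Rimbp3 (27 and 64; 1.14, 0.716 to 1.86) and Cyp2c50 (19 and 71; 1.80, 1.07 to 3.16) many tags had copies within Lars2 or Gphn, and 8.62%, 9.89% and 10% held a YGCY motif. These tags were not compared with the sequence of ribosomal RNA, so whether they came from it was not tested. Tm4sf19 (24 and 80; 1.60, 1.005 to 2.64) shared 80 of 104 tags with 1500003O03Rik, and 14 were placed once. Dkk1 (16 and 55) shared 67 of 71 tags with Ppp1r2, and Usp9x (9 and 65) shared 73 of 74 with its own gene.

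Muscle pathways were read from lists of genes. Of 28 windows behind genes of excitation-contraction coupling and ion channels, 15 held a tag and 5 held at least 10, against 39.8% and 1.06% of all windows. Those 5 were Atp1b1, a subunit of the sodium pump (6 WT and 34 *Mbnl1* KO; 2.72, 1.13 to 7.94), Jph1, which ties the T-tubule to the sarcoplasmic reticulum (6 and 21; 1.68, 0.657 to 5.09), Trdn, Srl, the sarcoplasmic calcium binder (3 and 9; 1.44, 0.360 to 8.28), and Scn4a, the muscle sodium channel (7 and 3; 0.206, 0.0344 to 0.902). Scn4a was the single window of these 5 with an interval below 1, and scaled to tags placed once that interval held 1 (0.229, 0.0383 to 1.005). The ratio of Trdn, given above, was also below 1, with an interval that held 1. Of the 12 tags of Srl 7 had copies elsewhere, and with those placed once (3 and 2) its ratio was 0.357 (0.0298 to 3.11). The list as a whole had 36 and 97 tags (1.30, 0.875 to 1.955). At Atp1b1 38 of the 40 tags lay in the first 0.5 kb, next to a 3′ UTR with 41 and 161 tags.

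The bodies of sarcomere and Z-disc genes had 1550 WT and 5673 *Mbnl1* KO tags. Of their 39 windows 12 held a tag (30.8%) and 0 held 10, with 7 and 29 tags in all, beside the 39.8% and 1.06% of all windows. Of 39 windows of RNA-binding and splicing genes 14 held a tag, with Tra2a, above, and Qk, a splicing regulator (6 and 26; 2.08, 0.839 to 6.19), past 10. Of 30 windows of glycolysis and energy metabolism 16 held a tag, and the sum of 68 and 382 came mostly from Phka1; with tags placed once it was 12 and 41. Prkaa2, a catalytic subunit of AMP-activated kinase, had 2 and 17 (4.09, 0.970 to 36.5), or 2 and 10 placed once (2.68, 0.570 to 25.1). Of 21 windows of growth and atrophy genes 13 held a tag, with Fbxo32, a ubiquitin ligase of muscle atrophy (0 and 12, interval from 1.34 upward), Acvr2b, a receptor for myostatin (2 and 10; 2.40, 0.512 to 22.6), and Irs2, an insulin receptor substrate (5 and 6; 0.577, 0.147 to 2.39; placed once 3 and 5, 0.892). Of 24 windows of muscle transcription factors 11 held a tag. Windows behind 8 marker genes of skeletal muscle had 5 and 11 tags, and those behind markers of endothelium, macrophages, fibroblasts, adipocytes, Schwann cells, satellite cells, smooth muscle and erythroid cells had between 0 and 4 in WT and between 0 and 10 in *Mbnl1* KO.

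Clusters gave the finest view. Of 2369 clusters in the genome, 96 lay in windows, with a median ratio of 2.16 (1.80 to 2.88), beside 1.92 over all clusters. In the windows 24 were called higher in *Mbnl1* KO (25%) and 5 lower (5.21%), against 20.6% and 4.81% of all clusters, so the windows were near the background in both. The number of calls changed with the tags used: 6 of 49 were called higher with tags of at least 2 reads and 1 of 21 with those also placed once. In these settings ratios were also scaled down further, so a higher call needed more *Mbnl1* KO tags. The shares of all clusters called in them are not given here, so these counts are not a result about the windows. The median ratio of window clusters was 1.04 (0.832 to 1.52) with single-base tags kept. Of the 96, 10 had 0 WT tags; with such clusters held at the ratio that 3 WT tags would give, the medians were 1.92 in the windows and 1.76 over all. The largest was the repeat of Phka1 (55 and 330 tags). Among those placed once and called higher were clusters of Atp1b1 (5 and 32), Prkg1 (0 and 18, interval from 2.11 upward), Bmpr2 (1 and 17), Lnp (1 and 17), Usp15 (0 and 14, from 1.59 upward) and Enah (0 and 13, from 1.47 upward). Each of these rested on few WT tags, so the upper bounds were wide or open. The minimum of 10 tags for a cluster counts both libraries, and these clusters passed it through their *Mbnl1* KO tags. Clusters low in *Mbnl1* KO pass it less easily, in the windows and over the genome, which also bears on the medians above.

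YGCY motifs were concentrated in window tags. Motifs numbered 2.55 per 100 nt in WT tags and 3.38 in *Mbnl1* KO tags, against 1.13 and 1.30 in the sequence 200 nt to each side of the same tags and 0.72 on the complementary strand in both. With tags placed once the values were 2.23 and 2.79, against 1.028 and 1.105. The opposite strand of the windows was enriched too, at 1.70 and 2.16 placed once, and 3′ UTR tags held 3.65 and 3.16. At least 1 motif lay in 35.95% of WT (34.5 to 37.4) and 47.3% of *Mbnl1* KO window tags placed once (46.3 to 48.4). In 3′ UTRs the shares were 59.5% (58.6 to 60.4) and 58.9% (58.5 to 59.4), while the motifs per 100 nt given above were fewer in *Mbnl1* KO. Tag length differed between the libraries, with a median of 21 nt in WT and 23 in *Mbnl1* KO and an upper quartile of 23 and 31 in the windows, and medians of 23 and 26 in 3′ UTRs. A longer tag can hold more motifs, and the part of length in these shares was not tested.

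Of all tetramers, TGCT was the most enriched in window tags placed once, at 3.11 times its frequency in the shifted sequence, over 10107 distinct tag positions. GCTT (3.09), TTGC (2.93), CTGC (2.36) and CGCT (2.35) followed, and each shares 3 letters in a row with TGCT. TGCC ranked 16 and CGCC 137. Of 42 busiest stretches of 30 bases in clusters placed once, 30 held at least 1 YGCY motif and 17 at least 2, while 24.4% of 291662 stretches of 30 bases taken evenly through the windows held 1. The cluster of Usp15 that was called higher held 0 tags with a motif.

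Clusters called lower in *Mbnl1* KO shared a different sequence. Named after their values were seen, they lay behind 4933436I01Rik (14 WT and 1 *Mbnl1* KO tags), Dpt (10 and 3), Suclg2 (9 and 2), Stat2 (9 and 2) and Erg (9 and 1), and all 5 held tags with the letters GGAGGA on the tag strand, letters chosen after these clusters were seen. Of the 24 clusters called higher, 2 held such a tag, as did 6 of the 67 called neither. The 4 with at least 80% of tags placed once, the bound used here for clusters, are shown because they run against the other clusters, with GGAGGA in capitals.
4933436I01Rik, chrX:65172930-65172959, minus strand: gaatgaggaagGGAGGAgGGAGGAccatgg
Suclg2, chr6:95413679-95413708, minus strand: ggggagGGAGGAcaatggagaaggggggag
Stat2, chr10:127736757-127736786, plus strand: tgGGAGGAGGAtgcataagggagtcctcgt
Erg, chr16:95571965-95571994, minus strand: tgaggagGGAGGAccatgagGGAGGAaggt
These sites lay 94, 9312, 6867 and 8796 bases past the gene ends. GGAGGA occurred in 1.19% of the stretches of 30 bases taken through the windows.

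As a share of tags, GGAGGA was also higher in WT in other parts of the genome, and a match of these letters to the primers and linkers of the libraries was not tested. In the windows 499 of 6054 WT tags held it, or 8.24% (7.56 to 8.96), against 186 of 13977 *Mbnl1* KO tags, or 1.33% (1.147 to 1.535), a ratio of 0.179 (0.151 to 0.212). The complement of these letters occurred in 1.11% and 2.61%. On the opposite strand of the windows the shares were 10.8% and 1.997%, and deep in intergenic sequence 8.37% and 1.78%, so the higher share in WT was not particular to the windows. In coding sequence they were 5.401% and 2.728%, with a ratio of these tags of 0.913 (0.791 to 1.057), and in 3′ UTRs 0.750% and 0.457%, with a ratio of 1.24 (0.983 to 1.57), or 1.47 (1.14 to 1.92) placed once. In the last of these, tags with GGAGGA per tags used were therefore more frequent in *Mbnl1* KO. Without these tags, in the windows and in the library totals, the window ratio was 1.12 and the shares on the strand of the gene were 56.9% and 64.2%.

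**Figure D5:**
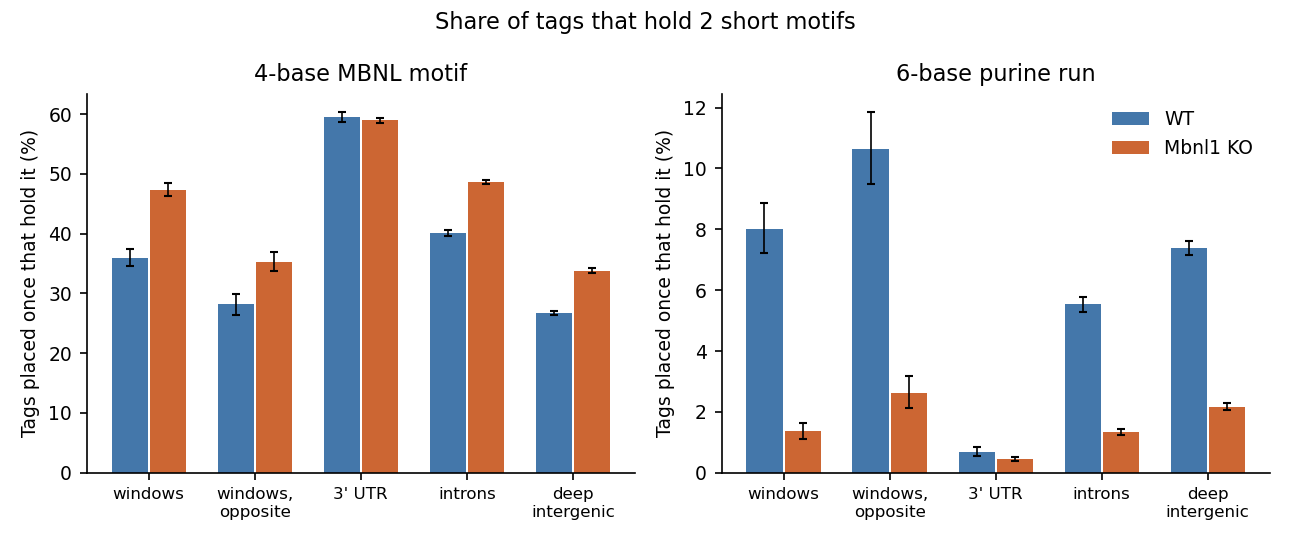
Share of tags placed once (vertical axes, %) that hold a YGCY motif (left) or the 6-base purine run of the clusters called lower (right), by part of the genome, for WT (blue) and *Mbnl1* KO (orange), with exact 95% intervals. In the windows the YGCY share is higher in *Mbnl1* KO and the purine share higher in WT, while in 3′ UTRs the YGCY shares are 59.5% in WT and 58.9% in *Mbnl1* KO.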

How the data were processed

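HITS-CLIP tags of Mbnl2 were taken from the 2 deposited tables, 1 per genotype. According to the methods, the authors discarded low quality reads and short sequences, aligned the rest to mm9 with BWA (its version is not given in the sources used here) and removed potential PCR duplicates. Per the labels, the tables of 3 mice per genotype were merged, and the deposited tables do not mark the RNase concentration or the mouse. Each row is a unique tag, and the deposited count beside it tells how many reads were collapsed; rows, not reads, were counted here.

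Tags on assembled chromosomes were used (337354 WT and 472915 *Mbnl1* KO) without those made up of at least 70% a single reference base (44.0% and 17.0%), leaving 188766 and 392681. Windows, 3′ UTRs and introns came from GENCODE vM1. A *Mbnl1* KO/WT tag ratio is multiplied by 0.481, the ratio of the tags used. Intervals are exact Clopper-Pearson (scipy) and cover counting error only, and PCR reads are not independent molecules. A count of 0 allows up to 3 tags, or 15.9 and 7.64 per 1000000 tags used in WT and *Mbnl1* KO. On simulated counts of the 209 windows with at least 10 tags in this comparison, 97.9% of intervals held the true ratio. These counts were drawn as independent tags, which the intervals assume, so variation among mice, PCR and copied sequence were not tested by them.

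The genes named are those of the 20 fullest windows, the 5 highest and 5 lowest ratios among windows with at least 20 tags, the 10 largest clusters, listed genes with at least 10 window tags (1 of them is not reported here), and, added after seeing the data, windows with at least 20 tags placed once. The clusters called higher or lower and the 8 sites shown first were named after their values were seen. The regions and lists were chosen with earlier results of these data known. RefSeq (GRCm38.p6) was used for names only. Motifs were counted on the tag strand against the sequence shifted by 200 nt to each side. Alternatives were other scales, other single-base thresholds, collapsed tags, tags of at least 2 reads, other windows and cluster sizes, tags placed once, subtraction of the opposite strand, leaving out tags with GGAGGA and leaving out the fullest window of each class of 3′ UTR tags; the last 4 were chosen after the data were seen.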

Additional observations from a re-analysis of the deposited data

Results flagged for a closer look

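The windows also held tags that the comparisons leave out, those made up of at least 70% a single reference base. There were 5255 in WT and 2958 in *Mbnl1* KO, beside 6054 and 13977 tags that were used, so they came to nearly as many as the tags used in WT and to far fewer in *Mbnl1* KO. A signal outside the main measurement drew attention to them, and its cause was not tested.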

How the results depend on the processing

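The window ratio of 1.11 was 2.31 with raw tags, 1.65 when scaled to all tags, 1.07 with single-base tags kept and 1.21 with windows of 5 kb. It was 1.04 with the first 1 kb left out, 1.07 with tags placed once and 1.05 (0.987 to 1.12, an interval that holds 1) with those of at least 2 reads. After subtraction of the opposite strand it was 2.18, or 2.13 placed once, 1.51 with at least 2 reads and 1.44 (1.23 to 1.69) with both. It was 0.545 when scaled to 3′ UTR tags. The share on the strand of the gene was above 50% in every setting run, in WT and *Mbnl1* KO in turn: 52.4% and 60.4% with single-base tags kept, 58.9% and 65.5% at a threshold of 50%, 64.5% and 71.8% with at least 2 reads, 58.8% and 68.5% within 5 kb, 55.1% and 61.5% without the first 1 kb, and 66.5% and 74.6% placed once with at least 2 reads; in *Mbnl1* KO it was 61.6% collapsed and 65.4% placed once. The median ratio of window clusters was 1.04 with single-base tags kept and 1.80 placed once with at least 2 reads. Clusters called higher numbered 50 of 212 with single-base tags kept, 11 of 72 at a threshold of 50%, 9 of 63 collapsed and 6 of 49 with at least 2 reads. They were 10 of 28 with at least 20 tags each, 11 of 46 placed once and 1 of 21 placed once with at least 2 reads. With at least 5 tags each they were 24 of 378, but a cluster of fewer than 10 tags cannot be called higher, so the 24 could not change. Fewer tags make fewer clusters. The shares of all clusters called under these settings are not given here, so these counts are not a result about the windows. The cause of the other shifts was not tested. No paired analysis was possible because each genotype has 1 merged table, and no mouse could be left out. The alternative without masked repeats was not run, since the genome file used here marks none. Depth limits single windows: in WT most held 0 or few tags.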
